A study of Mus musculus with 7 samples.

Results

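Rgs1 and Rgs2 encode regulators of G-protein signalling, and they were followed here as a pair of genes, represented by 4 probe sets, out of 9999 genes with a named probe set. They were selected on their measured log2 intensities in these arrays: in knockout replicates 3 and 4 both genes lay far below all other arrays. Their levels, and their difference between knockout and wild type, are therefore given as a description with no test. The arrays were hybridised with RNA from RAW264.7, a mouse macrophage-like cell line, grown in DMEM with fetal bovine serum, penicillin and streptomycin and left untreated (time point T0). The Gfi1 knockout group held 4 arrays, titled RAW GfI1-1, and the wild-type group held 3 arrays, titled RAW WT. How the knockout was made, which part of Gfi1 it removed, and whether its arrays came from 1 clone or several are not stated in the labels. Replicates are titled biological, but nothing names separate cultures, so a p-value here covers the spread among the arrays at hand, which may be technical.

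A heterotrimeric G protein is switched on when an activated receptor loads its alpha subunit with GTP, and it is switched off when that GTP is hydrolysed. RGS proteins speed the hydrolysis by binding the active alpha subunit, which shortens the signal. Rgs1 acts on Gi and Gq alpha subunits and is known in leukocytes for damping the response to chemokines. Rgs2 acts mainly on Gq, and its transcript is known to be induced quickly by cyclic AMP in many cell types. Gfi1 is a zinc-finger repressor of transcription, best known from blood cell development.

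Promoter sequences are shown for Rgs2, for Rgs16, the RGS gene with the largest difference between the groups, and for Tle3, the gene whose profile over the arrays was most like that of Rgs2. They run from 250 bases before to 50 bases from the annotated gene start, are taken from RefSeq on build GRCm38.p6 and read 5′ to 3′ along the gene. Rgs2 lies on the minus strand at chr1:144004100-144004399, Rgs16 on the plus strand at chr1:153740103-153740402 and Tle3 on the plus strand at chr9:61372116-61372415. Capitals mark matches to TGACG, the half-site of the cyclic AMP response element, and to AATC, the core of the sequence that GFI1 binds, each searched on both strands (CGTCA and GATT on the other strand).
Rgs2: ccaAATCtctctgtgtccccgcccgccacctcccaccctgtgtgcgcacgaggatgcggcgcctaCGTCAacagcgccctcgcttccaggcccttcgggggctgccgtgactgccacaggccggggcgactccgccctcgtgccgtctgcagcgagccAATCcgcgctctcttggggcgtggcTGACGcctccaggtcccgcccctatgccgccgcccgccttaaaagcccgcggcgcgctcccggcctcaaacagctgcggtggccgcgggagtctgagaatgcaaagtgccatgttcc
Tle3: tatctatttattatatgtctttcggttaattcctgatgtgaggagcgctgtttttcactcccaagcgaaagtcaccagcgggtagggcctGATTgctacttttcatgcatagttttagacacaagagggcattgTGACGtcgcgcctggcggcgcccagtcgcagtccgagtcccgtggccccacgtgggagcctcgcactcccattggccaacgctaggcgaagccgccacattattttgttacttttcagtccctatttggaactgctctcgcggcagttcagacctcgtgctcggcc
Rgs16: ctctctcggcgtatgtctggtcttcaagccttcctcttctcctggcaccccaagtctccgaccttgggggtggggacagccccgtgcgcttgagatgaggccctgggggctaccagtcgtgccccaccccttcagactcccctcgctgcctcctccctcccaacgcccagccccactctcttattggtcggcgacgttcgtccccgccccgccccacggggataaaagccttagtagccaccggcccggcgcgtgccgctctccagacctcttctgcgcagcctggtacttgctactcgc

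The Rgs2 window held 2 matches to the TGACG half-site, whose first bases lie at -185 (on the other strand) and at -67 from the gene start. It held 2 matches to AATC, at -247 and at -92. The Tle3 window held 1 match to TGACG, at -116, and 1 to AATC, at -160 on the other strand. The Rgs16 window held these letters on neither strand. Of 32851 RefSeq promoter windows of the same length, 20.8% held TGACG and 73.1% held AATC, so the AATC match is common and both are descriptions of the letters only.

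Gfi1 itself was higher in the arrays labelled knockout. Its intensity was 4.93, 5.02, 3.97 and 3.97 in knockout replicates 1 to 4, against 2.66, 2.85 and 2.98 in the wild-type arrays, on the log2 scale used for every level below. All knockout arrays lay above all wild-type arrays, and knockout replicates 1 and 2 lay above replicates 3 and 4. The difference was 1.65 (SE 0.30, limma adjusted p = 0.00447), and the wild-type level was below the 5th percentile of genes, used here as the limit of low signal. Whether this probe set lies in the edited part of Gfi1 is not known, so its signal cannot check the knockout. Every direction below therefore rests on the labels.

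The 4 knockout arrays fell into a pair of replicates 1 and 2 and a pair of replicates 3 and 4, and no label separates the pairs. Over all 19431 probe sets, the SD of the log2 difference between arrays was 0.16 within the first pair, 0.14 within the second and 0.13 to 0.19 among wild-type arrays. Between the knockout pairs it was 0.52 to 0.54. The first pair stood 0.80 to 0.81 from the wild-type arrays and the second 0.56 to 0.57. Knockout values are therefore given array by array, and what separates the pairs was not tested. In RNA from a whole culture, fewer cells expressing a gene and less RNA per cell cannot be told apart.

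Rgs1 was above the wild-type level in one knockout pair and near the limit of low signal in the other. Its probe set 1417601_at measured 8.71, 8.77, 4.05 and 4.14 in knockout replicates 1 to 4, against 7.27, 7.39 and 7.26 in wild-type replicates 1 to 3. The 3 levels do not touch, and each is tight: the 2 values of a knockout pair differ by no more than the wild-type arrays do. Before the log was taken, the intensities were 418, 438, 16.6 and 17.7 units in the knockout arrays and 154, 168 and 153 units in the wild-type arrays. Relative to the wild-type mean, knockout replicates 1 and 2 were 2.64-fold and 2.77-fold higher, and replicates 3 and 4 were 9.54-fold and 8.95-fold lower. The limit of low signal was 3.44 in knockout replicate 3 and 3.46 in knockout replicate 4, so Rgs1 stood above it by less than 1 log2 unit in both.

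Rgs2 stayed close to the wild-type level in the first knockout pair and was more than 10-fold lower in the second. Its brightest probe set, 1419247_at, measured 9.72, 9.75, 5.73 and 5.92 in knockout replicates 1 to 4, against 9.58, 9.54 and 9.50 in the wild-type arrays. Replicates 1 and 2 exceeded the wild-type mean by 0.18 and 0.21, and replicates 3 and 4 were 14-fold and 12.3-fold lower. The second Rgs2 probe set, 1419248_at, measured 9.32, 9.14, 5.38 and 5.42 in the knockout arrays, against 9.04, 9.12 and 9.03 in the wild-type arrays. The third, 1447830_s_at, measured 8.48, 8.27, 4.15 and 4.63 in the knockout arrays, against 8.09, 8.22 and 8.15 in the wild-type arrays. All 3 probe sets put knockout replicates 3 and 4 between 3.53 and 4.0 log2 units below their wild-type means. In the first pair they lay between 0.08 and 0.32 above it, and at 1419248_at knockout replicate 2 was only just above the highest wild-type array.

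**Figure D1:**
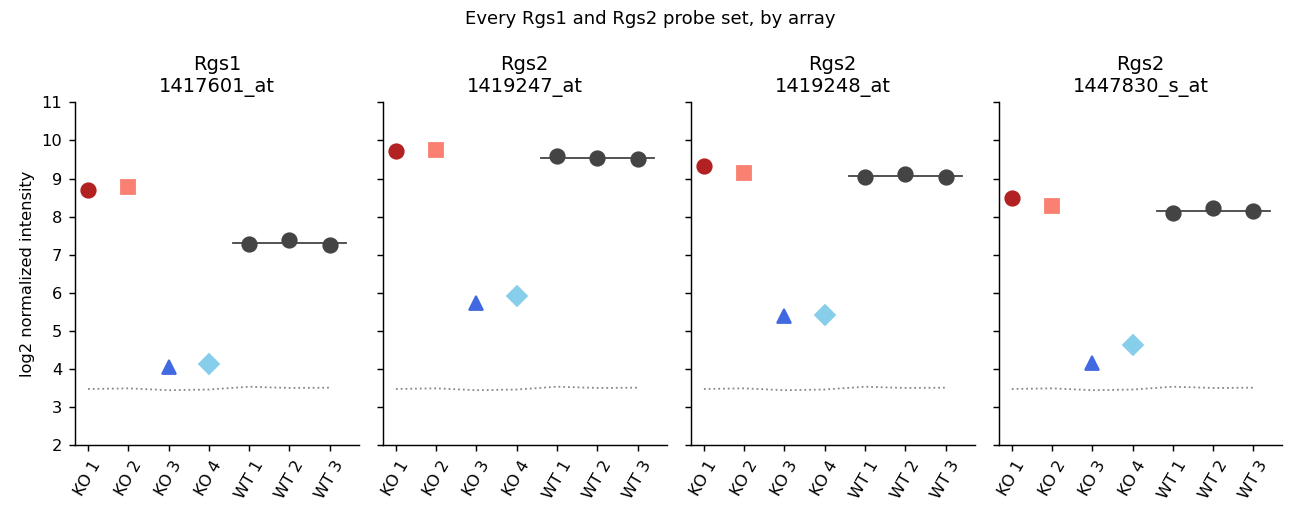
Log2 normalized intensity (vertical axis) of the 1 Rgs1 and the 3 Rgs2 probe sets in each array, with knockout (KO) replicates 1 to 4 left and wild-type (WT) replicates 1 to 3 right; the line is the wild-type mean and the dotted line the 5th percentile of genes in each array. In every panel KO 3 and KO 4 sit at least 3 log2 units below the wild-type mean, while KO 1 and KO 2 sit well above it for Rgs1 and close to it for Rgs2.

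A mean over the knockout group describes neither pair. The knockout mean of Rgs1 was 6.42 ± 2.68 (SD, n = 4), against 7.31 ± 0.07 in wild type (SD, n = 3), a difference of -0.89. For Rgs2 it was 7.78 ± 2.26 (SD, n = 4), against 9.54 ± 0.04 (SD, n = 3), a difference of -1.76. With only knockout replicates 1 and 2 in the group the differences were 1.43 and 0.20, and with only replicates 3 and 4 they were -3.21 and -3.72. The pairs thus lie on opposite sides of the wild-type mean for Rgs1, and by a small margin for Rgs2. Adding 50 units before the log, which damps low signals, left Rgs1 -1.64 and -1.62 from wild type in knockout replicates 3 and 4, and Rgs2 -2.95 and -2.85.

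Few genes fell as far in knockout replicates 3 and 4. Counted from the most reduced of 9999 genes, Rgs2 was number 8 in replicate 3 and number 11 in replicate 4, and Rgs1 was number 13 and number 16. At least 3 log2 units below the wild-type mean in both arrays lay 17 genes (0.17% of all). Of these, Rgs1, Rgs2 and Tle3 were above the wild-type mean in both knockout replicates 1 and 2, and Rgs1 alone was at least 1 log2 unit above it. With a looser limit, 286 genes were at least 1 log2 unit below wild type in replicates 3 and 4, and 4 of them were at least 1 unit above it in replicates 1 and 2: Rgs1, the transcription factor gene Runx3, and Herc6 and Ms4a4c, named here after their values were seen. Ms4a4c was under the limit of low signal in the wild-type arrays (2.61, 2.29 and 2.55) and in knockout replicates 3 and 4 (1.36 and 1.23). No test was made of these counts, since the pairs are not groups of the study. Rgs1 and Rgs2 were also selected for their low values in knockout replicates 3 and 4. Their ranks there follow from that selection and are no independent result.

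The genes with profiles most like those of the members were found by the root mean square distance over the 7 arrays, each profile taken relative to its own wild-type mean. For Rgs1 the 5 nearest were Cyria (distance 0.54 log2 units), which encodes a Rac1-binding protein, Runx3 (0.58), Rgs2 (0.72), Tle3 (0.75) and Prnp (0.88), the prion protein gene. For Rgs2 they were Tle3 (0.17), Sema4d (0.43), Cyria (0.60), Tmem223 (0.65) and Zfp608 (0.67), and Rgs1 came next at 0.72. In knockout replicates 3 and 4, Cyria (1.39 and 2.04) and Zfp608 (3.09 and 3.20) were under the limit of low signal, as was Runx3. The distances of these genes therefore depend on the floor of the signal. The members were selected for their fall in knockout replicates 3 and 4, and these same values enter the distance. Their nearness to each other is therefore no independent result. Rgs1 differed from Rgs2 by its higher level in knockout replicates 1 and 2.

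Tle3, a Groucho-family co-repressor gene, measured 8.07, 7.95, 4.36 and 4.01 in knockout replicates 1 to 4, against 8.04, 7.76 and 7.79 in the wild-type arrays. Relative to wild type it stayed close to Rgs2 in all 4 knockout arrays. Runx3 measured 6.47, 6.36, 2.77 and 2.26 in the knockout arrays, against 4.96, 4.65 and 4.62 in the wild-type arrays. As with Rgs1, the wild-type level of Runx3 lay between those of the knockout pairs, but its low values are under the limit of low signal. Sema4d, which encodes a membrane semaphorin, measured 8.19, 8.13, 5.39 and 5.32 in the knockout arrays, against 8.62, 8.63 and 8.61 in the wild-type arrays, so all knockout arrays were below wild type.

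**Figure D2:**
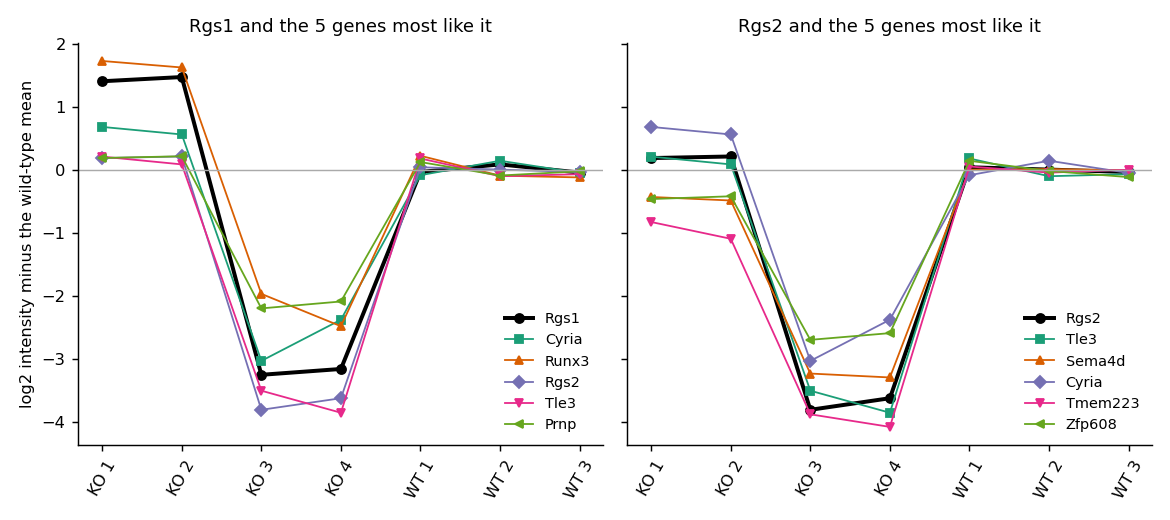
Log2 intensity minus the gene's own wild-type mean (vertical axis) in knockout (KO) and wild-type (WT) arrays, for Rgs1 with the 5 genes nearest to it (left) and Rgs2 with the 5 nearest to it (right); lines only join the values of a gene. Tle3 lies almost on Rgs2, and Runx3 is the one drawn gene that shares the high KO 1 and KO 2 values of Rgs1.

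Between the labelled groups, limma called 4305 of 9999 genes at an adjusted p of 0.05, or 43.1%, with 21.5% higher and 21.6% lower in the knockout arrays. The groups did not overlap for 54.5% of genes. Of 19 other RGS genes on the list used here, 7 were measured, and all 7 had groups that did not overlap. Of these 7, 1 was higher in the knockout arrays, 4 were lower and 2 did not pass, with a median difference of -0.28 against -0.01 for all genes. Apart from Rgs18, whose signal was too low to show it, none of them had the low values of Rgs1 and Rgs2 in knockout replicates 3 and 4 beside values at or above wild type in replicates 1 and 2.

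Rgs16, which like Rgs1 acts on Gi and Gq, was higher in all knockout arrays and most of all in the pair where Rgs1 was high. It measured 7.89, 7.79, 4.46 and 4.68 in knockout replicates 1 to 4, against 3.04, 2.56 and 3.05 in the wild-type arrays, where it was below the limit of low signal. The difference was 3.32 (SE 0.94, limma adjusted p = 0.026). This call was lost when any 1 wild-type array was left out (adjusted p 0.072 to 0.085), without knockout replicate 2 (0.0503), with 50 units added before the log (difference 1.32, adjusted p = 0.0999), and with the array pairs as random blocks (adjusted p = 0.085). A second Rgs16 probe set showed the same order at smaller size, with knockout replicates 1 to 4 at 3.02, 2.77, 0.74 and 0.98 log2 units above the wild-type mean. Rgs3 had the same order of pairs, with 8.32, 8.21, 7.23 and 7.15 in the knockout arrays and 7.12, 7.07 and 6.98 in the wild-type arrays. Its difference of 0.68 did not pass (adjusted p = 0.12, and 0.048 without knockout replicate 4), and knockout replicates 3 and 4 were only just above the highest wild-type array.

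Rgs10, an RGS gene strongly expressed in macrophages and microglia, was lower in every knockout array. It measured 8.43, 8.37, 8.09 and 8.07 in the knockout arrays, against 9.69, 9.57 and 9.61 in the wild-type arrays. The difference of -1.39 (SE 0.11) had a limma adjusted p of 0.000142, and 0.0043 with the pairs as blocks, the only call in the RGS list that both fits made. Rgs14, which binds Gi alpha subunits through 2 separate domains, was lower by a difference of -0.77 (adjusted p = 0.0031, and 0.059 with the pairs as blocks). Rgs9 differed by -0.27 and Rgs18 by -0.51, both lower, and both calls were lost with the pairs as blocks (adjusted p 0.46 and 0.16). The Rgs9 call was also lost without any 1 wild-type array or without knockout replicate 1 or 2 (adjusted p 0.061 to 0.13), with quantile normalization (0.0502) and with each array centred on its median (0.056). With 50 units added before the log the Rgs18 call was lost (difference -0.03, adjusted p = 0.39). Rgs18 was below the limit of low signal in both groups. Rgs19 differed by -0.28 and did not pass (adjusted p = 0.0997, and 0.044 without knockout replicate 3), and its second probe set put knockout replicates 3 and 4 above the wild-type mean, by 0.28 and 0.26.

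**Figure D3:**
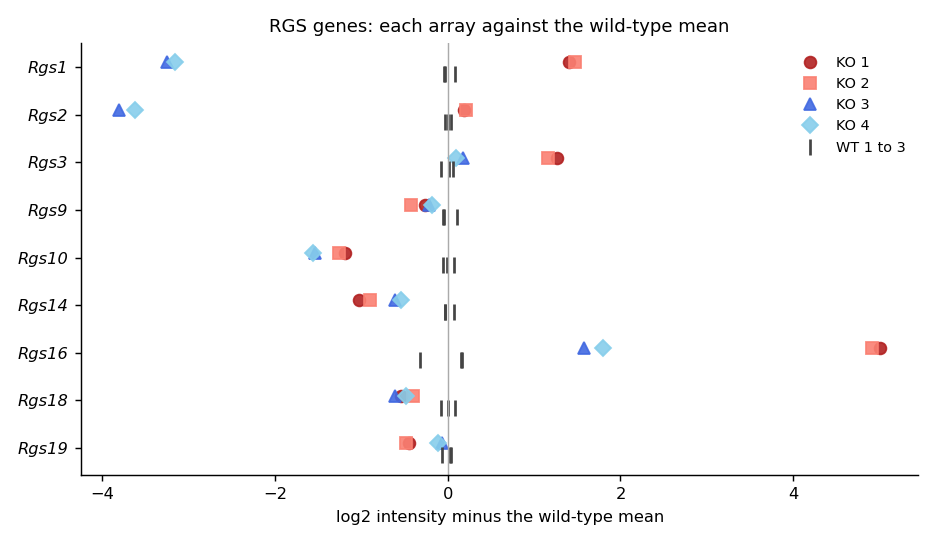
Log2 intensity minus the wild-type mean (horizontal axis) of the 9 measured RGS genes, with knockout (KO) arrays as coloured symbols and wild-type (WT) arrays as ticks. Rgs1 and Rgs2 are the only genes drawn with KO 3 and KO 4 below -3 and KO 1 and KO 2 above 0, while Rgs10 lies left of wild type in all KO arrays and Rgs16 right of it.

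Of 9 measured genes for alpha subunits, on which RGS proteins act, 0 were higher and 5 were lower by limma, against 21.5% and 21.6% of all genes, with a median difference of -0.29 against -0.01 for all genes. Gnaq, which encodes the Gq alpha subunit, measured 5.87, 5.85, 7.53 and 7.40 in knockout replicates 1 to 4, against 8.41, 8.38 and 8.38 in the wild-type arrays. It was lowest in the pair where Rgs1 was high, and its difference of -1.73 had an adjusted p of 0.021, or 0.067 with the pairs as blocks and 0.064 to 0.067 without any 1 wild-type array. Gnai2, the main Gi alpha subunit gene of leukocytes, was lower by a difference of -0.41 (adjusted p = 0.0034), Gna13 by -0.32 and Gnas, the Gs alpha subunit gene, by -0.29. The last 3 calls were lost with the pairs as blocks (adjusted p 0.16, 0.29 and 0.29), as was every call among the alpha subunits, and for Gna13 the mean of its probe sets had the opposite sign. Gna13 also lost its call without wild-type replicate 2 or 3 (adjusted p 0.059 and 0.053), and Gnas without wild-type replicate 3 (0.054).

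Of 9 measured beta and gamma subunit genes 3 were higher and 1 was lower, near the 21.5% and 21.6% of all genes, with a median difference of 0.03. Gng10 was lower, at 9.50, 9.47, 9.92 and 9.91 in the knockout arrays and 10.50, 10.57 and 10.60 in the wild-type arrays (difference -0.86, adjusted p = 0.0024). Gng12 (0.74), Gnb1 (0.33) and Gng8 (0.31) were higher, without a call when the pairs were blocks (adjusted p 0.13, 0.40 and 0.48), and the signs of Gng12 and Gnb1 turned when all probe sets were averaged. Single arrays decided these calls as well: they were lost for Gng12 without any 1 wild-type array or without knockout replicate 1 or 2 (adjusted p 0.057 to 0.096), for Gng8 without any 1 array other than knockout replicate 4 (0.064 to 0.12) or with 50 units added before the log (0.13), and for Gnb1 without wild-type replicate 1 (0.066). Among 9 other regulators of alpha subunits, the chaperone and exchange factor gene Ric8a (0.60) and the RhoGEF gene Arhgef1 (0.33), whose product has an RGS-like domain, were higher and Arhgef11 (-0.28) was lower. None of these 3 passed with the pairs as blocks (adjusted p 0.082, 0.27 and 0.24). Among 4 measured receptor kinases and arrestins, Arrb2 (0.46) and Grk5 (0.25) were higher and Arrb1 (-0.55) was lower, and these calls too were lost (adjusted p 0.091, 0.53 and 0.22). Arrb1 lost its call without wild-type replicate 1 (0.062), and Grk5 without any 1 array other than wild-type replicate 1 (0.058 to 0.16) and with an intensity trend and a robust prior (0.057).

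The receptors that signal through Gi, whose output Rgs1 is known to damp, were mostly lower in the knockout arrays. Of 14 measured, 2 were higher and 8 were lower, with a median difference of -0.88, where 21.6% of all genes were lower. S1pr1, a sphingosine 1-phosphate receptor gene, measured 3.36, 3.22, 3.16 and 2.95 in the knockout arrays, against 7.02, 6.86 and 6.91 in the wild-type arrays. The difference was -3.76 (SE 0.10, limma adjusted p = 4.0e-06). All knockout values were under the limit of low signal, so the measured difference depends on the floor of the signal (-1.54 with 50 units added before the log) and the pairs cannot be compared. The fractalkine receptor gene Cx3cr1 (difference -2.16) and the oxysterol receptor gene Gpr183 (-1.42) were lower in all knockout arrays, and both passed with the pairs as blocks. Hcar2, the niacin receptor gene, went the other way, with 8.44, 8.45, 7.66 and 7.55 in the knockout arrays and 4.92, 4.80 and 4.79 in the wild-type arrays (difference 3.19, adjusted p = 0.000137). With the pairs as blocks, 1 of the 14 was higher and 4 were lower, against 448 higher and 456 lower among all 9999 genes. The chemokine receptor gene Ccr2 was under the limit of low signal in all knockout arrays (3.42, 3.32, 3.27 and 3.23). Ccr1 was under it in knockout replicates 2 to 4 (3.21, 2.51 and 2.74). Their differences (-1.25 and -1.38) therefore depend on the floor as well. When dim genes, below the 40th percentile, were dropped, 3 of these receptors were called lower and 0 higher. How many of the 14 stayed in that fit is not given.

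Of 3 measured receptors that signal through Gq, the preferred target of Rgs2, 2 were lower: the UDP receptor gene P2ry6 (difference -1.68, adjusted p = 2.7e-05) and the leukotriene receptor gene Cysltr1 (-1.42, adjusted p = 0.0009). Both passed with the pairs as blocks. Of 5 measured receptors that signal through Gs, 2 were higher and 0 were lower, against 21.5% and 21.6% of all genes. Calcrl, the calcitonin receptor-like receptor gene, was higher at 9.25, 9.16, 9.79 and 9.53 in the knockout arrays and 7.90, 8.05 and 8.04 in the wild-type arrays (difference 1.44, adjusted p = 0.0005). Ptgir, the prostacyclin receptor gene, was higher mainly in the pair with high Rgs1, with 8.30, 8.25, 6.96 and 7.04 in the knockout arrays against 6.35, 6.41 and 6.11 in the wild-type arrays (difference 1.35, adjusted p = 0.024, and 0.10 with the pairs as blocks). Its call was lost without any 1 wild-type array (adjusted p 0.063 to 0.084).

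Of 8 measured phospholipase C beta and adenylyl cyclase genes, the effectors of Gq and of Gs and Gi, 3 were higher and 0 were lower, against 21.5% and 21.6% of all genes. Plcb4 was higher by a difference of 0.96 (adjusted p = 5.9e-05) at almost one level in the knockout arrays, 8.82, 8.81, 8.79 and 8.77, against 7.92, 7.76 and 7.83 in the wild-type arrays. Adcy2 (0.79) and Plcb2 (0.37) were higher without a call when the pairs were blocks (adjusted p 0.21 and 0.53). Plcb2 also lost its call without wild-type replicate 2 or 3 or knockout replicate 1, 2 or 4 (adjusted p 0.062 to 0.11). Adcy7, the brightest of the list, differed by -0.07 (adjusted p = 0.52). Of 12 measured genes for cyclic AMP phosphodiesterases and protein kinase A, 1 was higher and 5 were lower, against the same shares of all genes. The regulatory subunit genes Prkar1b (-1.82) and Prkar2b (-1.70) and the catalytic subunit gene Prkacb (-0.83) were lower, and Prkar2b lost its call with the pairs as blocks (adjusted p = 0.081) and without any 1 wild-type array (0.076 to 0.080). The knockout mean of Prkar1b was under the limit of low signal, so its difference depends on the floor of the signal (-0.55 with 50 units added before the log). Prkar2b was under that limit in knockout replicates 3 and 4 (2.78 and 2.82). It lay -2.56 and -2.53 from the wild-type mean there, and -0.81 and -0.89 from it in replicates 1 and 2. Pde4b, which encodes a phosphodiesterase that breaks down cyclic AMP, was higher by a difference of 1.46 (adjusted p = 0.0074).

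Rgs2 is known as a gene that responds to cyclic AMP, and the other genes listed here as responsive to CREB, the factor that cyclic AMP activates, were mostly higher in the knockout arrays. Of 12 measured, 8 were higher and 1 was lower, with a median difference of 1.45, where 21.5% of all genes were higher. By array the median difference from wild type was 2.11, 2.12, 0.76 and 0.71 in knockout replicates 1 to 4, with the larger values in replicates 1 and 2. Rgs2 did not follow these medians: it lay 0.18, 0.21, -3.81 and -3.63 from its wild-type mean in the same arrays. A link between Rgs2 and this list was not tested. Nr4a1, an orphan nuclear receptor gene, measured 9.05, 9.19, 7.24 and 7.15 in the knockout arrays, against 5.14, 5.75 and 5.36 in the wild-type arrays (difference 2.74, adjusted p = 0.0077). The related Nr4a3 (1.78), the clock gene Per1 (1.62) and the phosphatase gene Dusp1 (1.52) were higher in the same order of pairs. Nr4a3 and Dusp1 lost their calls with the pairs as blocks (adjusted p 0.068 and 0.086) and without any 1 wild-type array (0.054 to 0.059 and 0.063 to 0.077). With the blocks, 5 of the 12 were called higher, against 448 of all 9999 genes. With 50 units added before the log the Nr4a3 difference was 0.61 (adjusted p = 0.054). Fos differed by 0.45 and did not pass (adjusted p = 0.16). Pde4b stands in this list as well, as does Pde4d, the gene called lower (difference -0.43, adjusted p = 0.033). No gene of the list was called lower with quantile normalization, with 50 units added before the log or with the pairs as blocks. The same held with the replicate number as a block, without any 1 wild-type array and without knockout replicate 4.

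Over all the lists, 90 of 166 genes were measured, of which 23 were higher, 27 were lower and 40 did not pass, against 21.5% higher and 21.6% lower among all genes. The median difference was -0.01 for the lists and -0.01 for all genes. These lists were chosen with earlier results of these arrays known, and their counts are descriptions.

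**Figure D4:**
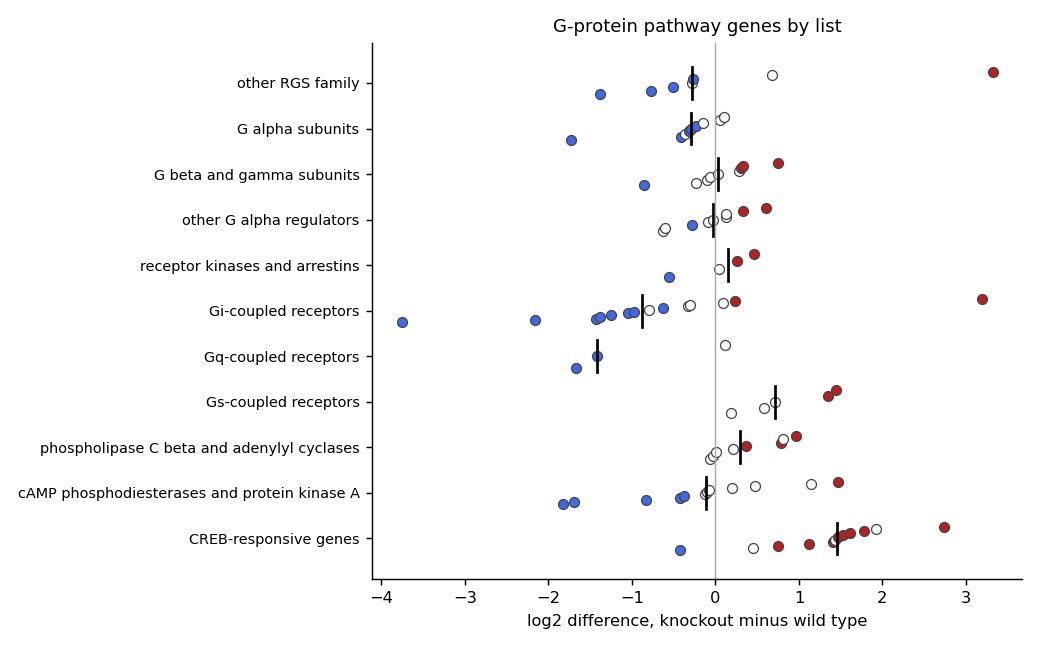
Log2 difference, knockout minus wild type (horizontal axis), of each measured G-protein pathway gene, in rows by list; red points were called higher, blue points lower and open points not called by limma at an adjusted p of 0.05, and the bar is the list median. Gi-coupled receptors lie mostly left of 0 (8 of 14 lower) and CREB-responsive genes mostly right of it (8 of 12 higher).

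Rgs1 and Rgs2 are close neighbours on mouse chromosome 1, with 5 annotated genes between them in the RefSeq gene table of GRCm38.p6. Of the 10 genes listed on either side and those between, 5 were measured. Of these, 4 were measured above the limit of low signal. At the brightest probe set, none of the 4 had values in knockout replicates 3 and 4 like those of the members. Uchl5, a deubiquitinase gene and the nearest measured gene beside Rgs2, measured 9.80, 9.81, 10.06 and 10.09 in the knockout arrays, against 9.51, 9.58 and 9.53 in the wild-type arrays. It was thus slightly higher in the arrays where Rgs2 was lowest (difference 0.40, limma adjusted p = 0.013). Glrx2, a glutaredoxin gene, was higher by a difference of 0.51 (adjusted p = 0.014) and Ro60, which encodes an RNA-binding autoantigen, was lower by a difference of -0.64 (adjusted p = 0.0013). Cdc73, a subunit gene of the PAF1 complex, differed by 0.04 (adjusted p = 0.73), but with its probe sets averaged it was called lower (difference -0.75, adjusted p = 0.0021). For Cdc73, values other than those of its brightest probe set are not given by array. Whether they fell in knockout replicates 3 and 4 is therefore not shown. On the far side of Rgs1, Rgs18 had the low signal given above in all arrays, too low to show a fall of that size. With the pairs as blocks, Uchl5, Glrx2 and Ro60 did not pass (adjusted p 0.16, 0.21 and 0.064). Glrx2 also lost its call without wild-type replicate 1 or 3 (0.053 and 0.0501), and Uchl5 had a difference of 0.02 (adjusted p = 0.91) when its probe sets were averaged.

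**Figure D5:**
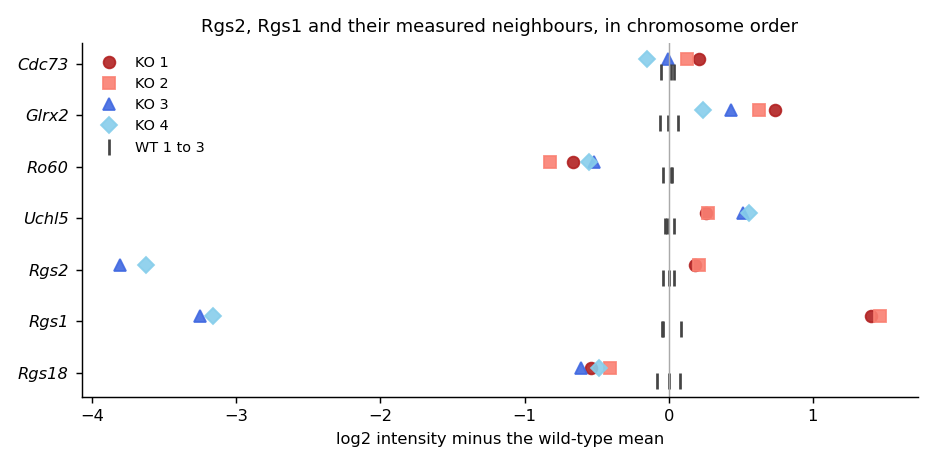
Log2 intensity minus the wild-type mean (horizontal axis) of Rgs2, Rgs1 and the 5 measured genes around them, from top to bottom in chromosome order; knockout (KO) arrays are coloured symbols and wild-type (WT) arrays are ticks. The drop of KO 3 and KO 4 below -3 is drawn for Rgs2 and Rgs1, while the neighbours stay within 1 log2 unit of wild type. Only the brightest probe set of each gene is drawn, and for Cdc73 the mean of its probe sets was lower. Rgs18 is below the limit of low signal in all arrays.

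Macrophage markers were present in every array. Of 13 listed, 10 were measured and all stood above the limit of low signal, from 6.62 for the lowest to 13.33 for the highest. The lysozyme gene Lyz2, the brightest, was lower in the knockout arrays (difference -0.45, limma adjusted p = 0.0037). It lost its call with the pairs as blocks (adjusted p = 0.12). The summed intensity of the markers on the log2 scale was 14.3 to 14.4 in the knockout arrays and 14.9 in the wild-type arrays. The sum was nearly level across the knockout pairs that separated Rgs1 and Rgs2. It is taken over unlogged intensities, so the brightest markers weigh most and single markers can differ. Cx3cr1, on the same list, was lower in the knockout arrays by the difference of -2.16 given above. Markers other than Cx3cr1 and Lyz2 are not given singly here. Of the marker lists for other cells, those of B cells, T and NK cells, and neutrophils had 0 measured genes. The dendritic cell list had 1, Itgax, at 4.18 ± 0.03 in the knockout arrays and 4.49 ± 0.25 in the wild-type arrays (SD, n = 4 and 3), which did not pass (limma adjusted p = 0.065, and 0.0090 without wild-type replicate 3). The fibroblast list had 1, Pdgfrb, below the limit of low signal in the knockout arrays and at 3.9 ± 0.02 in the wild-type arrays (SD, n = 3). The part of other cells in the values of Rgs1 and Rgs2 was not tested.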

How the data were processed

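RNA of 7 arrays, 4 labelled knockout and 3 labelled wild type, was hybridised to Affymetrix arrays, per the labels' protocols. The authors deposited 1 normalized intensity per probe set and array for 19431 probe sets. The submitters' processing notes name RMA, a method that corrects background, normalizes arrays to one distribution and combines the probes of a set; its version is not given. The intensities were on a linear scale, from 1.53 to 13508, with array medians of 93.8 to 101, so log2 was taken here. Such normalization removes shifts common to all genes, and no detection calls were used. Precision is limited by how many arrays there are.

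Gene names came from a table of platform annotation: 17335 had 1 symbol, 532 had several and 1564 had none, and only the first were used. For each of 9999 genes the probe set highest on average over the arrays was kept. Groups were compared with limma 3.58.1 in R 4.3.3 (lmFit and eBayes, two-sided, Benjamini-Hochberg adjustment over all genes, threshold 0.05), and the fit was tested on simulated data. For the pair blocks, the wild-type arrays, knockout replicates 1 and 2, and knockout replicates 3 and 4 were random blocks in duplicateCorrelation.

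The members, the lists and the knockout pairs were chosen with earlier results of these data known. Named genes were the members, the measured RGS family, up to 4 called genes and the brightest gene of each other list, the 5 genes nearest to each member (leaving out model names), measured neighbours, Gfi1, and the brightest gene of each marker list. Alternatives covered scaling, low values, probe sets, the variance model, blocks and arrays left out.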

Additional observations from a re-analysis of the deposited data

How the results depend on the processing

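Rgs1 and Rgs2 kept the sign of each knockout array's difference under the scaling, low-value and probe-set alternatives, and only the choice of knockout arrays turned the group difference: without knockout replicates 3 and 4 it was 1.43 for Rgs1 and 0.20 for Rgs2, and without replicates 1 and 2 it was -3.21 and -3.72. With array pairs as random blocks (correlation 0.79), 904 genes were called (448 higher, 456 lower) in place of 4305, and 8 pathway genes were higher and 10 lower. Without knockout replicates 3 and 4, 6814 genes were called (3406 higher, 3408 lower), 36 of them pathway genes called higher. Leaving out genes under the 40th percentile left 14 pathway genes higher and 16 lower. Leaving out 1 array at a time gave 1379 to 2182 genes higher and 13 to 27 pathway genes higher. With all probe sets of a gene averaged, the sign turned for Cdc73 (-0.75), Gna13 (0.061), Gnb1 (-0.47) and Gng12 (-0.12), and without knockout replicates 3 and 4 it turned for Cyria (0.62) and Runx3 (1.67). Deviations of same-numbered knockout and wild-type arrays from their group means had correlations of 0.09, -0.09 and 0.09. The knockout deviations mostly reflect the difference between the pairs, so this check cannot tell whether the numbers pair the arrays. A fit with the replicate number as a block called 3805 genes. The cause of these changes was not tested, and some of these fits also used fewer arrays or genes.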

Other observations

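In 2 receptor genes of the lists, chosen here after their values were seen, the knockout pairs lay on opposite sides of wild type as they did for Rgs1. Cxcr4, the receptor gene for the chemokine CXCL12, measured 5.07, 4.93, 2.89 and 2.91 in knockout replicates 1 to 4, against 4.42, 4.24 and 4.12 in the wild-type arrays. Ptger2, a prostaglandin E2 receptor gene, measured 5.74, 5.82, 2.92 and 2.60 in the knockout arrays, against 3.65, 3.20 and 3.82 in the wild-type arrays. For both genes the values of knockout replicates 3 and 4 are under the limit of low signal. Neither passed between the labelled groups (limma adjusted p 0.70 and 0.54), and no test was made between the knockout pairs.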
